A study of Mus musculus with 8 samples.

Results

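Ubd encodes FAT10, a small protein of the ubiquitin family, and its transcript was followed here in the livers of mice fed a high-fat or a normal diet. All probes of the gene were taken from the arrays. There was 1 such probe (A_52_P338066) with 1 spot per array, so the account concerns 1 of 12885 genes with a symbol and 1 of 20164 features measured in all. Ubd was selected on its measured levels in all 4 groups, which are high on the high-fat diet. Its own values are therefore given as a description with their spread and with no test. Tests are given only for other genes.

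Liver RNA of 8 male C57BL/6 mice had been hybridised to 1-colour Agilent whole-genome arrays, 1 mouse per array. The mice were bought at 5 weeks of age and then ate their diet for 3 or 9 months, with 2 mice in each of 4 groups called HFD 3 months, ND 3 months, HFD 9 months and ND 9 months. The high-fat diet (HFD) held 58% fat, 25.5% carbohydrate and 16.4% protein at 5.2 kcal/g. The normal diet (ND) held 4.8% fat, 50.21% carbohydrate and 20.78% protein at 3.8 kcal/g. No group carried a genetic change or a drug. The diets differ in carbohydrate and protein as well as in fat, and the liver's fat content was not analysed here. Whole liver was used, so fewer cells of a type and less RNA per cell cannot be told apart in any result below. The number of arrays limits the precision. The SE and p-value of a difference rest on the spread between mice of a group and their arrays together. That spread was pooled over the 4 groups and drawn toward the one typical of all features, so it is not that of the 2 groups compared.

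All 4 HFD arrays were on one slide and all 4 ND arrays on another, so diet and slide cannot be told apart. The 3-month arrays were in the first row of each slide and the 9-month arrays in the second row, so duration and row cannot be told apart either. Mice fed for 9 months were also older than those fed for 3 months, so feeding time and age cannot be told apart. The 75th percentile of the signal was 184 to 425 on the HFD arrays and 477 to 593 on the ND arrays. The lowest value, 184, was that of HFD 9 months replicate 2, which also had the lowest share of spots above background (40.6%). All 15 hepatocyte markers looked for, among them Alb and Ttr, were above background on all 8 arrays. Unless stated otherwise, a level is the log2 processed signal minus the log2 of the 75th percentile of its array, so 0 stands for a signal equal to that percentile, and a difference is a difference of such levels.

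FAT10 consists of a pair of ubiquitin-like domains in tandem. It is activated by the E1 enzyme UBA6, handed to the E2 enzyme UBE2Z (also called USE1) and attached to target proteins, which are then degraded by the proteasome. NUB1 speeds that degradation. In human cells the gene is induced by interferon-gamma and tumour necrosis factor acting together, and it is active without added cytokine in mature dendritic cells and B cells. In liver, FAT10 is known from hepatocytes that form Mallory-Denk bodies, the keratin aggregates of steatohepatitis, and from hepatocellular carcinoma.

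The promoter of Ubd is shown because the gene is known as a target of NF-kB and interferon signalling, and the cytokine-induced genes below are read beside it. The 250 bases before the annotated start lie at chr17:37193642-37193891 on the plus strand of GRCm38.p6 (RefSeq). Capitals mark matches to the motifs searched, each on both strands.
Ubd promoter: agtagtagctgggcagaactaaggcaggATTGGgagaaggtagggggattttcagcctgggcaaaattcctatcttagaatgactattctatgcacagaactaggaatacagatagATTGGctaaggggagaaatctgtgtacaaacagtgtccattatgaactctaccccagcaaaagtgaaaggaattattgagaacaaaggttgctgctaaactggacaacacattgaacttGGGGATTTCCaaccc
The match GGGGATTTCC fits the kappaB consensus, the letters that NF-kB dimers bind, at bases -15 to -6 when the start is base 0. The box CCAAT stands in reverse (ATTGG) at bases -222 to -218 and again at -134 to -130. The letters TATAA begin 11 bases after the start, outside the stretch printed. Neither the interferon-stimulated response core, which reads GAAA, any 2 bases and GAAA again, nor the STAT palindrome TTCNNNGAA occurs in the 300 bases from 250 before to 50 after the start. The motifs overlap nowhere in this stretch. Of 32851 mouse promoters of that length, 8.46% hold the kappaB consensus, 3.44% the response core, 8.3% the STAT palindrome, 24.9% TATAA and 37.4% CCAAT. A match describes letters and shows no binding.

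Ubd stood high on all 4 HFD arrays and low on all 4 ND arrays. At 3 months its level was 1.42 and 1.38 on the HFD arrays, against -2.13 and -2.39 on the ND arrays. At 9 months its level was 2.40 and 2.16 on the HFD arrays, against -2.16 and -3.21 on the ND arrays. The groups of both diets did not overlap at either duration, and the lowest HFD array lay 3.51 above the highest ND array of the 3-month pair and 4.32 above that of the 9-month pair. The HFD minus ND difference was 3.66 ± 0.35 (SE, n = 2 mice each) at 3 months, a 12.7-fold ratio. At 9 months it was 4.96 ± 0.35 (SE, n = 2 mice each), a 31.2-fold ratio. Among the 12885 genes with a symbol, the difference of Ubd ranked 20 from the top at 3 months and 5 from the top at 9 months.

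Group means on the log2 scale were 1.40 ± 0.03 in HFD 3 months, -2.26 ± 0.18 in ND 3 months, 2.28 ± 0.17 in HFD 9 months and -2.68 ± 0.74 in ND 9 months (SD, n = 2 mice each). As a ratio to the 75th percentile, these means were 2.65 in HFD 3 months and 0.209 in ND 3 months, and 4.86 in HFD 9 months and 0.156 in ND 9 months. From high to low the order was HFD 9 months, HFD 3 months, ND 3 months and ND 9 months. The neighbours ND 3 months and ND 9 months overlapped, since ND 9 months replicate 1 lay between the ND 3 months arrays. The spread was widest in ND 9 months, where the arrays lay 1.05 apart, and narrowest in HFD 3 months, where they lay 0.04 apart.

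**Figure D1:**
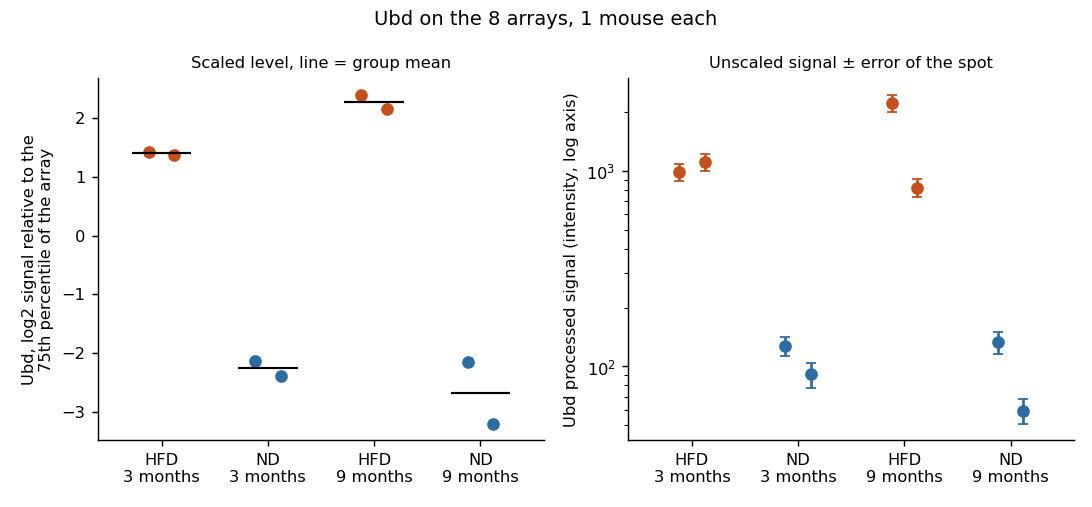
Left, the log2 level of Ubd relative to the 75th percentile of the array, by group, 1 point per mouse with the group mean as a line; right, the unscaled processed signal on a log axis with the error that the scanner software gives for the spot. The HFD points (orange) lie between 1.38 and 2.40 and the ND points (blue) between -3.21 and -2.13 on the left scale.

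Before scaling, the processed signal of the Ubd spot was 986 ± 98.9 and 1109 ± 111 on the HFD 3 months arrays, against 127 ± 14 and 91.3 ± 13.4 on the ND 3 months arrays (± the error of the spot). It was 2226 ± 223 and 822 ± 82.4 on the HFD 9 months arrays, against 133 ± 17.5 and 59.4 ± 8.61 on the ND 9 months arrays. All 8 spots were well above background, and none was saturated or carried an outlier flag. The error of the spot was at most 14.7% of its signal, and it does not cover the spread between mice. The unscaled HFD 9 months values differed most within a group. The weaker of them, 822, came from the dim array named above and lay below both HFD 3 months values.

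On the HFD, the 9-month level was 0.88 ± 0.35 (SE, n = 2 mice each) above the 3-month level, a 1.83-fold ratio. Both 9-month arrays lay above both 3-month arrays, by 0.73 to 1.02. On the ND the 9 minus 3 months difference was -0.42 ± 0.35 (SE, n = 2 mice each), and the arrays overlapped, with pairs running from -1.08 to 0.23. Without ND 9 months replicate 2 that difference was 0.10, and without ND 9 months replicate 1 it was -0.95. The HFD minus ND difference was 1.30 ± 0.49 (SE) larger at 9 months than at 3 months. No feature of the 20164 passed a limma test of that kind of difference after adjustment, and 1549 had an unadjusted p under 0.05.

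The gap between the diets stood under each way of processing the arrays, while the step from 3 to 9 months on the HFD did not. With the authors' deposited log2 values, the HFD minus ND difference of Ubd was 2.63 at 3 months and 3.89 at 9 months. With a normexp background correction on the median signal it was 2.99 and 4.09 at these durations. With no scaling the HFD 9 minus 3 months difference was 0.37 and the arrays of these groups overlapped. Centred on the spike-in controls it was -0.05 ± 1.1 (SE), and the arrays again overlapped. Both settings differ from the 75th percentile by 1 constant per array, which moves all features alike. The median of all features was -0.50 with no scaling and -0.93 with the spike-in controls for 9 minus 3 months on the HFD, and -1.01 and -0.96 for HFD minus ND at 9 months. The difference of Ubd from that median, 0.88 on the HFD, is the same under these 3 settings by construction. Among the genes named below, the 9-month HFD minus ND differences of Tnfaip3, Tgm2, Erap1 and Ddx58 change sign under this shift.

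**Figure D2:**
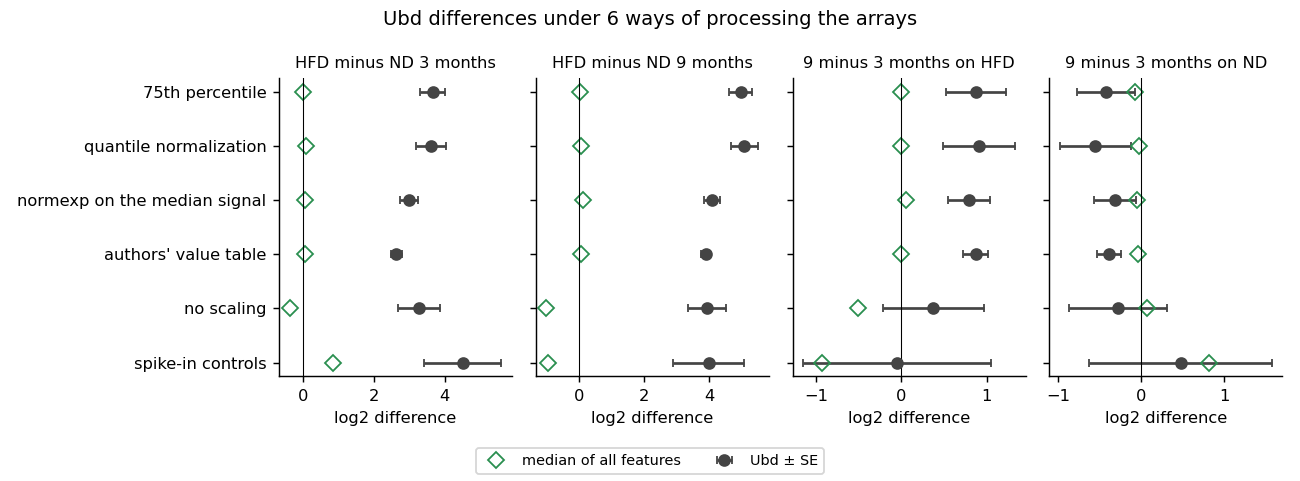
Differences of Ubd (filled points, log2, bars are the SE of the fit) and the median difference of all features (open diamonds) for 4 comparisons, under 6 ways of processing the arrays. The HFD minus ND differences stay between 2.63 and 5.08 in both left panels, while the 9 minus 3 months difference on the HFD runs from -0.05 to 0.91 and moves with the median of all features.

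The enzymes that attach FAT10 and the proteins known to bind it did not move with it as a group. Of 13 listed, 12 were measured well enough to test. At 3 months 1 was higher on the HFD by limma's test at an adjusted p under 0.05 and 0 were lower, beside 5.15% of all features called (1.47% higher and 3.68% lower). At 9 months 1 was higher and 2 were lower, beside 8.29% of all features called (3.59% higher and 4.7% lower). Median differences of the list were -0.04 at 3 months and -0.08 at 9 months, beside -0.01 and 0.02 for all features.

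Mad2l1, a spindle checkpoint protein to which FAT10 binds, was the member that rose. Its level was 0.98 and 0.67 on the HFD 3 months arrays, against -0.54 and -0.58 on the ND 3 months arrays. The 9-month levels were 0.07 and -0.12 on the HFD arrays, against -1.84 and -2.16 on the ND arrays. The diets did not overlap at either duration. The difference was 1.39 ± 0.21 at 3 months (limma adjusted p = 0.0247) and 1.98 ± 0.21 at 9 months (limma adjusted p = 0.00891), and its other kept probe differed by 1.32 and 1.19 at these durations. The call at 3 months held in 5 of 8 fits that left out 1 array, and the call at 9 months in 8 of 8. Of the members called lower, Ube2k, a ubiquitin-conjugating enzyme, fell at 9 months by 1.32 ± 0.29 (limma adjusted p = 0.0451), whereas its other 2 kept probes averaged 0.37.

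The core of the FAT10 pathway showed small differences. Uba6, the E1 enzyme, differed by 0.09 ± 0.17 at 3 months and 0.39 ± 0.17 at 9 months (limma adjusted p = 0.768 and 0.186), while a second, dimmer probe gave 1.76 and 1.25. Ube2z, the E2 enzyme, differed by -0.16 ± 0.22 and -0.13 ± 0.22 at these durations. Nub1, which speeds degradation of FAT10 targets, differed by 0.01 ± 0.43 and -0.12 ± 0.43. These 3 genes did not pass the test at either duration, which does not show that they were equal.

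**Figure D3:**
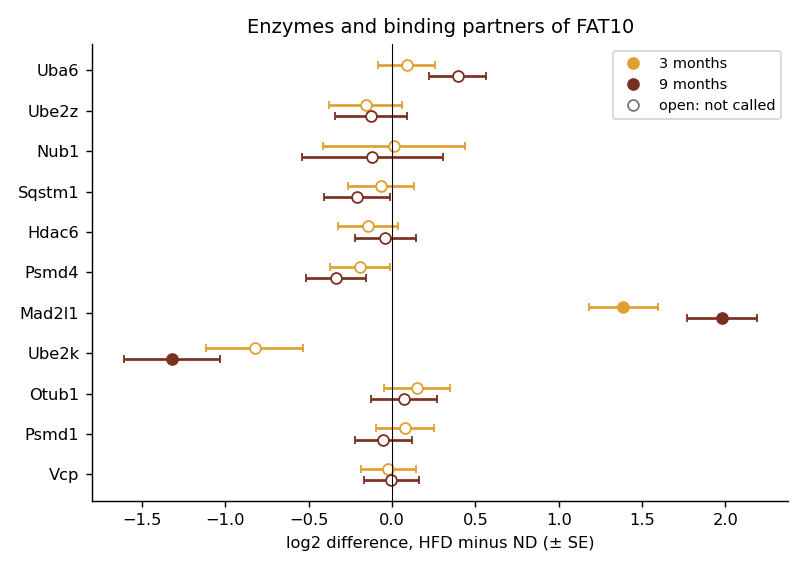
HFD minus ND differences (log2, bars are the SE of the fit) of 11 of the 12 tested enzymes and binding partners of FAT10, at 3 months (yellow) and 9 months (brown), filled where limma's adjusted p was under 0.05. Mad2l1 lies right of 0 at both durations, Ube2k is filled left of 0 at 9 months, and Uba6, Ube2z and Nub1 lie within 0.39 of 0.

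Other ubiquitin-like modifiers gave no call. Of 20 tested members, 0 were called at 3 months and 0 at 9 months, with median differences of 0.05 and 0.31. Isg15, another interferon-induced modifier, differed by 0.28 ± 0.51 at 3 months and 1.51 ± 0.51 at 9 months (limma adjusted p = 0.754 and 0.115), and its other probe by -0.33 and 0.70. Its ND 9 months arrays lay far apart, at 3.82 and 2.16, against 4.46 and 4.55 on the HFD 9 months arrays. None of the 10 E1 activating enzymes was called at either duration, with Uba7, the E1 of Isg15, at 1.37 ± 0.33 at 9 months (limma adjusted p = 0.0555).

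Ubd lies in the region of the major histocompatibility complex (MHC), and interferon-gamma also induces the catalytic subunits of the immunoproteasome. The list of 8 tested genes held these 3 subunits (Psmb8, Psmb9 and Psmb10), the 3 subunits they replace (Psmb5, Psmb6 and Psmb7) and the activator genes Psme1 and Psme2, so its medians of 0.00 at 3 months and 0.24 at 9 months mix both kinds. None was called at either duration. Psmb8 had levels of 3.66 and 3.59 on the HFD 3 months arrays, against 2.69 and 2.66 on the ND 3 months arrays, a difference of 0.95 ± 0.23 (limma adjusted p = 0.0699). Psmb9 differed by 0.93 ± 0.33 at 3 months and 1.16 ± 0.33 at 9 months (limma adjusted p = 0.149 and 0.0835). Psmb10 differed by 0.02 ± 0.18 at 3 months and 0.27 ± 0.18 at 9 months. Psmb8 at 9 months differed by 0.54 ± 0.23 (limma adjusted p = 0.191). The differences of Psmb8 and Psmb9 missed the threshold at both durations. Their arrays did not overlap between the diets at either duration, and neither did those of Psmb10 at 9 months. With so few arrays per group, a gene with no difference often separates in this way, so the separation is a description and no test. The share of all features that separate was not counted. Of 15 tested genes of MHC class I presentation, 0 were called at 3 months. At 9 months 1 gene was higher, close to the background for a list of this length (3.59% of all features higher, 8.29% called). That gene was Erap1, the peptidase that trims peptides for MHC class I, at 0.94 ± 0.19 (limma adjusted p = 0.0353, in 1 of 8 fits with an array left out).

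The nearest annotated genes that could be tested did not share the difference of Ubd. Of the 5 on either side in RefSeq order, 5 olfactory receptor genes were on the array and 3 were above background in a group. These 3 all lie at higher coordinates than Ubd, so the side of lower coordinates was not covered. HFD minus ND differences were -0.38 at 3 months and 0.23 at 9 months for Olfr94, -0.86 and -0.35 for Olfr96, and -0.27 and -0.27 for Olfr97, none called by limma.

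Genes that cytokines induce in many cell types were compared with Ubd as 4 lists, for interferon-gamma, for tumour necrosis factor (TNF) and NF-kB, for type I interferon and for interleukin-6 (IL-6) and STAT3. Together they hold 95 genes other than Ubd, of which 92 were on the array and 82 were tested. At 3 months 9 were higher on the HFD (11% of those tested, beside 1.47% of all features called higher) and 0 were lower. These were Cd83, Cxcl10, Cxcl9, Gbp2, Gbp5, Icam1, Oasl2, Tnfaip3 and Vcam1. At 9 months 9 were again higher (11%, beside 3.59% of all features) and 0 were lower, namely Cxcl10, Cxcl9, Ddx58, Gbp2, Gbp4, Gbp5, Oasl2, Rsad2 and Tnfaip3. The 2 sets shared 6 genes. Median differences over the 82 genes were 0.65 at 3 months and 0.59 at 9 months, beside -0.01 and 0.02 for all features. The difference was above 0 for 66 genes at 3 months and 65 at 9 months. With no scaling these counts were 48 and 31, and with spike-in centring 80 and 31. Above the median of all features lay 67 and 63 genes under each of these settings, the same by construction because they move all features alike. The lists had been drawn up with earlier results of these arrays known, so these shares carry no test of their own.

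The number of calls depended on single arrays. At 3 months it was 0 without either ND 3 months array, 18 without either ND 9 months array, and 1 or 5 with the first or the second HFD 3 months mouse left out. At 9 months it was 0 without ND 9 months replicate 2, 1 without either ND 3 months array, 5 without either HFD 3 months array, 2 without HFD 9 months replicate 1, and 21 without ND 9 months replicate 1. In these fits the lone array of a group was assumed to vary like the other groups. Where limma called 0, between 17 and 28 of the 82 genes had an unadjusted p under 0.05.

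Interferon-gamma targets made up 4 of the 6 genes called at both durations. The lists overlap, and Cxcl10, a member of these 4, is in the TNF and NF-kB list as well. Of 20 tested, 4 were higher at 3 months and 5 at 9 months, beside 1.47% and 3.59% of all features called higher. Median differences were 1.09 and 0.88. Gbp2, an interferon-inducible GTPase, had levels of 2.27 and 1.99 on the HFD 3 months arrays, against -0.96 and -0.81 on the ND 3 months arrays. The 9-month levels of Gbp2 were 1.5 and 1.01 on the HFD arrays, against -0.24 and -1.24 on the ND arrays. The diets did not overlap, and Gbp2 rose by 3.02 ± 0.36 at 3 months and 2.00 ± 0.36 at 9 months (limma adjusted p = 0.015 and 0.0279). Cxcl9, a chemokine that attracts activated T cells, had levels of 2.32 and 2.35 on the HFD 3 months arrays, against -0.02 and 0.32 on the ND 3 months arrays. The 9-month levels of Cxcl9 were 1.35 and 0.94 on the HFD arrays, against -0.56 and -1.11 on the ND arrays. Cxcl9 rose by 2.19 ± 0.27 at 3 months and 1.98 ± 0.27 at 9 months (limma adjusted p = 0.0156 and 0.0141).

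Cxcl10, a chemokine of the same receptor, rose by 2.79 ± 0.40 at 3 months and 2.22 ± 0.40 at 9 months (limma adjusted p = 0.0226 and 0.0273). Gbp5 rose by 1.54 ± 0.25 and 1.17 ± 0.25 (limma adjusted p = 0.0304 and 0.0441), and the 9-month call held in 1 of 8 fits with an array left out. Irf1, a transcription factor induced by interferon-gamma, differed by 0.81 ± 0.28 and 1.11 ± 0.28 (limma adjusted p = 0.135 and 0.0608).

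From 3 to 9 months on the HFD, Ubd and the interferon-gamma list moved differently in value. The 9 minus 3 months difference on the HFD was above 0 for Ubd, as given above, and above 0 for 3 of 20 genes of that list, with a list median of -0.27. For Gbp2 it was -0.87 ± 0.36 and for Cxcl9 -1.19 ± 0.27. In the same comparison 19 of 22 TNF and NF-kB targets, 16 of 21 type I interferon targets and 20 of 22 IL-6 and STAT3 targets were above 0, with medians of 0.56, 0.36 and 0.56. These signs depend on the scaling. Of the 82 genes 56 were above 0 here, against 29 with no scaling and 13 with spike-in centring. Above the median of all features lay 56 under each of these settings, again the same by construction. None of the 82 genes was called in this comparison, beside 0.00992% of all features called by limma (2 features, 0.00496% higher and 0.00496% lower), with 3108 features at an unadjusted p under 0.05. On the ND the 9 minus 3 months difference was called for 3 of the 82 genes, Icam1, Lbp and Tnfaip3, all higher at 9 months (3.66%, beside 1.05% of all features called, 0.441% higher and 0.61% lower).

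Of 22 TNF and NF-kB targets tested, 5 were higher on the HFD at 3 months and 2 at 9 months. All features called higher made up 1.47% and 3.59%. Cxcl10, counted above as an interferon-gamma target, was among these calls at both durations. Median differences of the list were 0.45 and 0.55. The mean level of the list was 0.71 and 0.65 on the HFD 3 months arrays, against -0.14 and -0.18 on the ND 3 months arrays. At 9 months it was 1.16 and 1.40 on the HFD arrays, against 1.13 and 0.20 on the ND arrays. The ND array at 1.13 was replicate 1, on which Ubd was low, at -2.16. Tnfaip3, the A20 protein that restrains NF-kB, had levels of 0.09 and -0.02 on the HFD 3 months arrays, against -2.15 and -2.14 on the ND 3 months arrays. For Tnfaip3 at 9 months the levels were 0.78 and 0.85 on the HFD arrays, against 0.10 and -0.31 on the ND arrays. Both ND 9 months arrays lay above both ND 3 months arrays. Tnfaip3 rose by 2.18 ± 0.20 at 3 months and 0.92 ± 0.20 at 9 months (limma adjusted p = 0.00878 and 0.0427), and the call at 9 months held in 0 of 8 fits with an array left out. Vcam1, an adhesion molecule of endothelium, rose by 2.04 ± 0.36 at 3 months (limma adjusted p = 0.0331). Icam1, another adhesion molecule, was well above background on no ND 3 months array and was at least 2.10-fold higher on the HFD at 3 months (limma adjusted p = 0.0421). The NF-kB subunit genes were not called, with differences of -0.38 at 3 months and -0.41 at 9 months for Nfkb1 and of -0.04 and 0.16 for Rela. The second probe of Nfkb1 gave -1.70 and 0.10.

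Of 21 type I interferon targets tested, 1 was higher at 3 months and 3 at 9 months, beside 1.47% and 3.59% of all features. Median differences were 0.79 and 1.30. Oasl2, an antiviral protein that carries ubiquitin-like domains, had levels of 0.51 and 0.17 on the HFD 3 months arrays, against -1.32 and -1.37 on the ND 3 months arrays. Oasl2 levels at 9 months were 0.96 and 0.32 on the HFD arrays, against -0.92 and -1.75 on the ND arrays. Oasl2 rose by 1.69 ± 0.35 at 3 months and 1.98 ± 0.35 at 9 months (limma adjusted p = 0.0488 and 0.0266), each call holding in 4 of 8 fits with an array left out. Rsad2, the antiviral protein viperin, rose at 9 months by 1.76 (limma adjusted p = 0.0436), and Ddx58, the RNA sensor RIG-I, by 0.98 (limma adjusted p = 0.0495). These calls held in 1 and 0 of 8 fits with an array left out. Of 22 IL-6 and STAT3 targets, 0 were called at 3 months and 0 at 9 months, with median differences of 0.15 and 0.02. The mean level of these targets was highest on ND 9 months replicate 1, at 6.33, against 5.62 and 6.01 on the HFD 9 months arrays. Steap4, a metalloreductase induced by IL-6 and TNF, differed by 0.75 ± 0.44 and 1.71 ± 0.44 (limma adjusted p = 0.316 and 0.064).

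**Figure D4:**
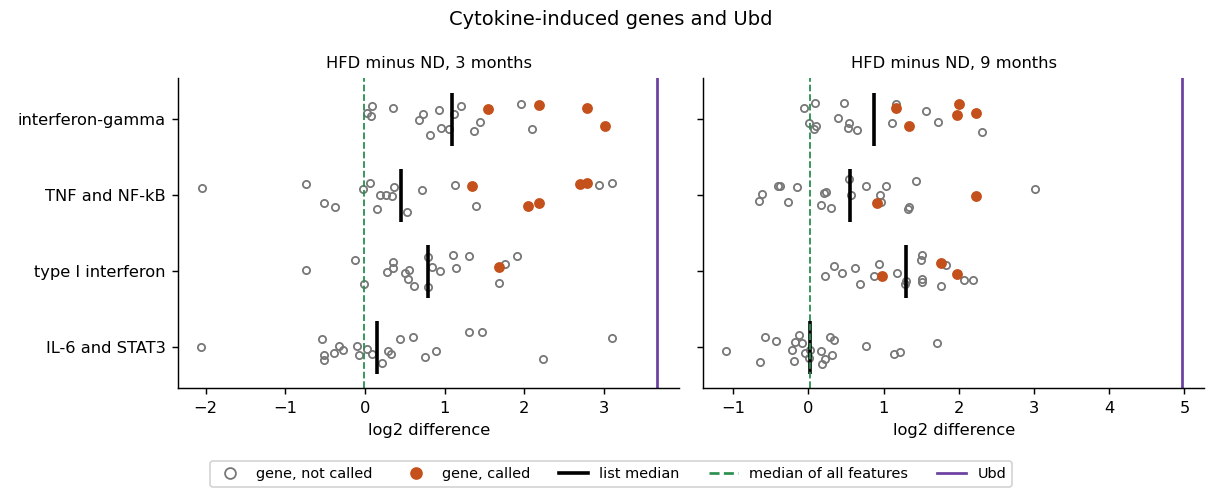
HFD minus ND differences (log2) of the tested genes of 4 cytokine lists at 3 months (left) and 9 months (right), 1 point per gene, filled where limma's adjusted p was under 0.05, with list medians as black bars, the median of all features as a dashed line and Ubd as a solid line. Ubd lies at 3.66 and 4.96, to the right of each filled point, and list medians run from 0.02 to 1.30.

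The cytokines that induce Ubd were themselves at or below the limit of the arrays. Ifng was above background on 0 of 8 arrays, Tnf on 1 array and Il6 on 2 arrays, so they were not tested. Of 21 cytokine and receptor genes tested, 0 were called at 3 months and 1 was higher at 9 months, beside 3.59% of all features. That gene was Ifngr2, a chain of the interferon-gamma receptor, at 1.16 at 3 months and 1.11 at 9 months (limma adjusted p = 0.0509 and 0.0451), called in 0 of 8 fits with an array left out.

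The 6 genes called higher at both durations were set beside Ubd for the kappaB consensus in their promoters, because that match lies close to the start of Ubd. The windows below hold 10 bases on either side of the match in capitals and run in the direction of the gene.
Ubd, chr17:37193867-37193896, plus strand: cattgaacttGGGGATTTCCaacccagcta
Cxcl10, chr5:92349029-92349058, minus strand: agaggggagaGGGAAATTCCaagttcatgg
Cxcl10, chr5:92348974-92349003, minus strand: tcggtttacaGGGGACTTCCctcgggttgc
Gbp2, chr3:142620660-142620689, plus strand: gcaaaaatctGGAACTTCCCgggttactac
Gbp5, chr3:142496847-142496876, plus strand: ggagaggaaaGGAAATTCCCagggctggcc
Tnfaip3, chr10:19015516-19015545, minus strand: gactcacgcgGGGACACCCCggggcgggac
Tnfaip3, chr10:19015403-19015432, minus strand: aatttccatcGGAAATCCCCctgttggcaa
The build is GRCm38.p6, from RefSeq. The second Cxcl10 match overlaps another shifted by 1 base, and the Gbp2 match lies 7 to 16 bases after the start. In Gbp2, Gbp5 and the second Tnfaip3 window the consensus reads on the opposite strand. Cxcl9 and Oasl2 hold no match in the 300 bases. By list, the consensus occurred in 4 of 15 interferon-gamma targets with a promoter in the table, 12 of 19 TNF and NF-kB targets, 4 of 19 type I interferon targets and 2 of 20 IL-6 and STAT3 targets, beside 8.46% of all promoters. The interferon response core, missing from the Ubd window, occurred in 9 of 15, 1 of 19, 11 of 19 and 2 of 20 genes of these lists, beside 3.44% of all promoters. A listed gene counted if any of its promoters held the motif, whereas the shares of all promoters count each promoter singly.

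The level of Ubd across the arrays was set beside that of each other gene by Pearson's r over 8 arrays. The arrays fall into 2 sets by diet, on 2 slides, so r mainly holds the diet difference and the relation cannot be tested. Of the 82 cytokine-induced genes, 13 had r above 0.9 with Ubd (15.9%), beside 723 of 20164 features (3.59%). The median r was 0.64 over the 82 genes and 0.0029 over all features. With the mean of each diet removed, so that differences within a diet remain, the medians were 0.40 and 0.015. List medians of this second r were 0.12 for interferon-gamma, 0.30 for TNF and NF-kB, 0.62 for type I interferon and 0.38 for IL-6 and STAT3. Oasl2 had r = 0.98 over the 8 arrays and 0.75 within diets, and Irf1 had 0.95 and 0.73. Gbp2 had 0.92 and -0.17, and Cxcl9 had 0.84 and -0.16. Within diets the highest Ubd arrays on the HFD were those of 9 months and the lowest on the ND was ND 9 months replicate 2.

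The 10 genes with a symbol most like Ubd over the 8 arrays were Zfp729a, Anxa2, Fbxo33, Tgm2, Abracl, Rnf115, Col5a1, Ly6c1, Fkbp9 and S100a11, with r from 0.985 to 0.996. They were chosen for sharing the pattern of Ubd, so their diet differences are a description with no test. Anxa2, a calcium-dependent membrane-binding protein, had levels of 4.67 and 4.60 on the HFD 3 months arrays, against 2.32 and 2.42 on the ND 3 months arrays. Anxa2 levels at 9 months were 5.08 and 5.09 on the HFD arrays, against 2.51 and 1.32 on the ND arrays. Like Ubd, it was lowest on ND 9 months replicate 2. The HFD minus ND difference of Anxa2 was 2.27 ± 0.37 at 3 months and 3.17 ± 0.37 at 9 months (SE). S100a11, a calcium-binding partner of annexins, differed by 1.97 and 2.92 at these durations. Ly6c1, a surface protein of endothelium and some leukocytes, differed by 1.75 ± 0.17 and 2.50 ± 0.17, and its other kept probe by 1.24 and 1.24. The other kept probe of Rnf115 gave -0.07 at 3 months and -0.08 at 9 months.

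Tgm2, the tissue transglutaminase that crosslinks proteins in Mallory-Denk bodies, was the gene closest to Ubd once the diet means were removed (r = 0.97, and 0.988 over the 8 arrays). Its level was 5.71 and 5.74 on the HFD 3 months arrays, against 5.22 and 5.10 on the ND 3 months arrays. Tgm2 levels at 9 months were 6.01 and 6.03 on the HFD arrays, against 5.22 and 4.93 on the ND arrays. Tgm2 had the order of Ubd on a much smaller scale, with a difference of 0.56 ± 0.18 at 3 months and 0.95 ± 0.18 at 9 months. The next by this measure were Smarca5 (0.96), Lratd2 (0.96), Rsl1d1 (0.94) and Ngfr (0.94). Lratd2 was above background on neither ND 9 months array and was at least 4.16-fold higher on the HFD at 9 months. Abracl, of an actin-regulating family, differed by 1.23 at 3 months and 1.42 at 9 months, but its other probe gave -1.05 and 0.62, and its 3-month difference was -1.06 with normexp and -0.96 with the authors' deposited values. Of the 13 tested genes of Mallory-Denk bodies and progenitor cells, 0 were called at 3 months and 1 at 9 months. That share is close to the 8.29% of all features called, 3.59% higher and 4.7% lower. The called gene was Tgm2, which was chosen here for its likeness to Ubd, so its call is no separate test.

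**Figure D5:**
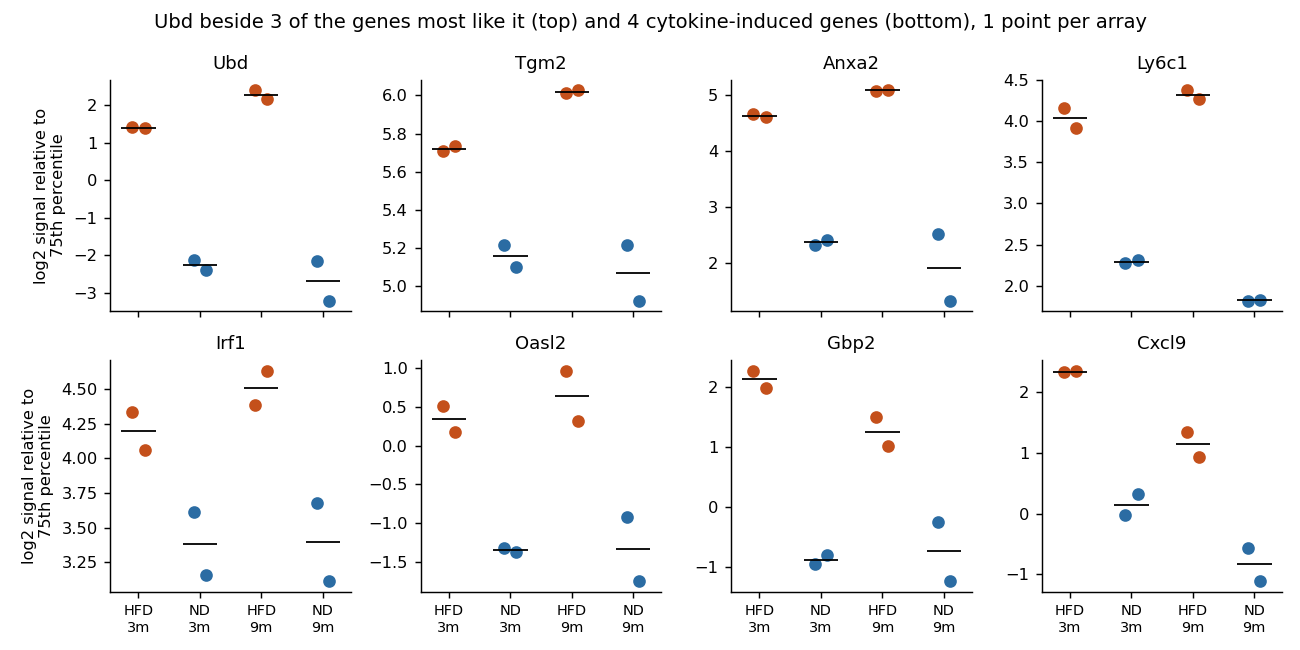
Log2 level relative to the 75th percentile of the array in each group, 1 point per mouse with the group mean as a line, for Ubd and 3 of the genes most like it (top) and 4 cytokine-induced genes (bottom). Ubd, Tgm2, Anxa2 and Ly6c1 have their highest mean in HFD 9 months, whereas Gbp2 and Cxcl9 have theirs in HFD 3 months.

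Markers of cell types that could carry Ubd moved with diet in part, and their part in its level was not tested. Counts of called markers stand beside 1.47% of all features called higher and 3.68% lower at 3 months, and 3.59% higher and 4.7% lower at 9 months, so 1 call in a list of this length is close to the background. Mature dendritic cells and B cells make FAT10 without added cytokine. The mean level of 9 tested dendritic cell markers was -0.96 to -0.79 on the HFD 3 months arrays, against -1.86 to -1.78 on the ND 3 months arrays. At 9 months it was -0.51 to -0.10 on the HFD arrays, against -1.52 to -0.79 on the ND arrays. Xcr1 and Ccl22 were above background on no array. At 3 months 2 of these markers were higher and 1 was lower, and at 9 months 1 was higher. Itgax, the integrin CD11c of dendritic cells and some macrophages, rose by 2.45 ± 0.49 at 3 months and 3.49 ± 0.49 at 9 months (limma adjusted p = 0.0469 and 0.0153), with 1 of 2 ND 3 months arrays above background and the 3-month call held in 2 of 8 fits with an array left out. Cd83, a marker of mature dendritic cells, rose by 2.70 at 3 months (limma adjusted p = 0.0445) and differed by 1.34 at 9 months (limma adjusted p = 0.159). Siglech, of plasmacytoid dendritic cells, fell by 2.55 at 3 months (limma adjusted p = 0.0329), but its other probe gave 2.64.

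Of 7 tested B cell markers, 0 were called at 3 months, and Cd22 was lower at 9 months (-1.60, limma adjusted p = 0.0298, in 2 of 8 fits with an array left out). Their mean level was -2.05 to -1.25 on the HFD 3 months arrays, against -2.18 to -2.16 on the ND 3 months arrays, and -2.01 to -1.47 on the HFD 9 months arrays, against -2.32 to -1.12 on the ND 9 months arrays. The 9-month ranges overlapped. Cd79a and Blk were above background on no array.

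Of 14 tested macrophage and Kupffer cell markers, 1 was higher at each duration, and this was Cx3cr1, the fractalkine receptor, at 1.89 and 2.96 (limma adjusted p = 0.0304 and 0.00891). The mean level of the list was 1.87 to 2.08 on the HFD 3 months arrays, against 0.13 to 0.74 on the ND 3 months arrays, and 2.22 to 2.75 on the HFD 9 months arrays, against 1.38 to 3.09 on the ND 9 months arrays. The ranges overlapped at 9 months. Of 8 tested T cell markers the difference was above 0 for 6 at 3 months and 2 at 9 months, with medians of 0.58 and -0.28. Cd4, the co-receptor of helper T cells, fell by 2.24 at 3 months and 3.00 at 9 months (limma adjusted p = 0.0274 and 0.0108), with Cd8a and Cd247 above background on no array. Of 11 markers of natural killer cells and cytotoxicity 3 could be tested and 0 were called, with Ncr1, Klrb1c, Klrk1 and Eomes above background on no array. Of 6 tested neutrophil markers the difference was above 0 for 4 at each duration, with medians of 0.81 at 3 months and 1.04 at 9 months. Their mean level was 0.14 to 0.95 on the HFD 3 months arrays, against 0.12 to 0.58 on the ND 3 months arrays, and 0.85 to 2.79 on the HFD 9 months arrays, against 1.28 to 1.89 on the ND 9 months arrays, so the ranges overlapped. Elane, a neutrophil protease, went the other way and was lower at 9 months (-3.53, limma adjusted p = 0.0395, in 2 of 8 fits with an array left out).

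Of 15 hepatocyte markers, 0 were called at 3 months and 1, Tat, a tyrosine-degrading enzyme, fell at 9 months by 1.84 (limma adjusted p = 0.0231). Their mean level was 7.87 to 7.94 on the HFD 3 months arrays, against 8.28 to 8.44 on the ND 3 months arrays, and 7.64 to 7.71 on the HFD 9 months arrays, against 8.20 to 8.27 on the ND 9 months arrays. The diets did not overlap at either duration, and the HFD was lower. Of 9 tested stellate cell markers, 2 were higher at each duration, the collagens Col1a1 (2.85 and 3.35, limma adjusted p = 0.019 and 0.01) and Col3a1 (2.09 and 2.92, limma adjusted p = 0.0295 and 0.0108). The mean level of that list was 0.75 to 0.83 on the HFD 3 months arrays, against -0.52 to -0.29 on the ND 3 months arrays, and 0.43 to 0.80 on the HFD 9 months arrays, against -0.80 to -0.47 on the ND 9 months arrays. Of 11 endothelial markers Lyve1 was higher at 3 months (2.28, limma adjusted p = 0.0252), and of 7 tested cholangiocyte markers Cftr was lower at 9 months (-1.79, limma adjusted p = 0.0228).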

How the data were processed

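The deposited array files were written by Agilent Feature Extraction 10.7.1.1, per the submitters' processing notes. Their processed signals are intensities with the background subtracted and spatial trends removed, not scaled between arrays, per the file headers. The deposited flags of each spot (above background, saturated, outlier, non-uniform) are other values of 0 or 1. The authors' value table holds log2 values in the same order as the median signals within each array (a Spearman correlation of 1) and with near-equal distributions across arrays; the method behind them is not given in the sources used here.

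Of 59305 spots, outlier and non-uniform ones were dropped, and log2 signals (pseudocount 0) were centred on the 75th percentile of the array. A probe stayed if both arrays of a group, in any of the 4 groups, had it well above background (25800 of 55681), and the probe with the highest mean stood for its gene. limma 3.58.1 (in R 4.3.3, with data.table at version 1.17.8) fitted 4 group means (4 residual degrees of freedom), and a feature was called where its p, adjusted by the Benjamini-Hochberg procedure over all 20164, was under 0.05. The method was tested on simulated data. Names come from RefSeq (GRCm38.p6; 26056 probes matched 19752 symbols), while the arrays use build mm9, so RefSeq coordinates are given only for promoters. A fold written "at least" sets the brighter group against the weakest signal that still counted as well above background in the dimmer group.

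The gene, the lists and the tests were chosen with earlier results of these data known. Named genes are Ubd, up to 4 called members per list with the smallest p (otherwise 2), a panel of 14 pathway genes, the 10 genes most like Ubd, the 5 most like it within diets, and its neighbours; genes behind small counts are named as well, and a few named by this rule are not reported here. Other settings are given in the closing section. Figures used Python 3.11.15 with matplotlib 3.10.9, numpy 2.4.6 and pandas 2.3.3.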

Additional observations from a re-analysis of the deposited data

How the results depend on the processing

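The HFD minus ND differences of Ubd were positive under every setting tried, from 2.63 to 4.51 at 3 months and from 3.89 to 5.49 at 9 months. At 3 months they were 2.99 with normexp, 2.63 with the authors' value table and 4.51 with spike-in centring, and at 9 months 4.09, 3.89 and 3.99 with these and 3.93 with no scaling. No scaling and spike-in centring were chosen after seeing the data. The 9 minus 3 months difference of Ubd was 0.37 with no scaling and -0.051 with spike-in centring on the HFD, and 0.47 with spike-in centring on the ND. With 1 array left out, the 4 differences ran from 3.53 to 3.79, from 4.44 to 5.49, from 0.75 to 1.00 and from -0.95 to 0.10.

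Counts of called features moved far more. HFD versus ND at 3 months gave 1039, against 3989 with array weights, 2748 with the arrays of the comparison only, 72 with no filter, 35 with spike-in centring and 0 to 2231 with 1 array left out. At 9 months 1671 became 272, 0, 255 and 305 under the same settings, 3953 with no scaling and 364 to 2511 with 1 array left out. For 9 versus 3 months on the HFD, 2 became 61 with quantile normalization, 32 with normexp, 69 with the authors' table, 16 with probes above background on all arrays, 1 with a floor, 19 with trend, 49 with no scaling, 6 with spike-in centring, 0 with no filter, array weights or the comparison's arrays only, and 0 to 1937 with 1 array left out. On the ND, 212 became 1417 with array weights, 137 with the comparison's arrays only, 5 with no filter, 56 with spike-in centring and 0 to 340 with 1 array left out. The difference between the diet effects gave 0, then 1 with quantile normalization, trend or probes above background on all arrays, 10 with no scaling, 4 with spike-in centring and 0 to 3 with 1 array left out. Called cytokine-induced genes at 3 months (9) became 5 with quantile normalization or no scaling, 24 with array weights, 30 with the comparison's arrays only, 0 with no filter or spike-in centring and 0 to 18 with 1 array left out. At 9 months (9) they became 17 with the authors' table, 1 with no scaling, 0 with array weights, the comparison's arrays only, no filter or spike-in centring, and 0 to 21 with 1 array left out. Where limma called 0, unadjusted p-values under 0.05 numbered 749 to 3909 over all features and 0 to 33 over the cytokine-induced genes. Of the calls, 28.5% were higher at 3 months and 43.3% at 9 months, against 5.98% and 2.33% with no scaling and 77.1% and 4.59% with spike-in centring. The cause was not tested. Of the 10 genes most like Ubd, 3 stayed among the 100 most like under either added setting.

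Differences that changed sign were Abracl at 3 months (-1.06 with normexp, -0.96 with the authors' table), Siglech at 3 months with the mean of its probes (0.045) and, at 9 months, Tgm2 (-0.087), Erap1 (-0.092), Tnfaip3 (-0.12) and Ddx58 (-0.060) with no scaling and -0.028, -0.033, -0.058 and -0.0016 with spike-in centring. These settings move all features alike, with a median of -1.01 and -0.96 at 9 months, so the 9-month sign changes follow from that shift. Animals that share a number in the labels did not deviate together (r of -0.018 to 0.14), so the numbers do not pair the samples. With the replicate block, 0 features were called for 9 versus 3 months on the HFD and 28 on the ND. On the dim array, HFD 9 months replicate 2, fewer spots were above background (40.6%).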
